A study of Mus musculus with 7 samples.

Results

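The small nucleolar RNA (snoRNA) host genes Gas5, Snhg1, Snhg3, Snhg5, Snhg6, Snhg8 and Snhg12 were followed through 7 RNA sequencing libraries of mouse B cells. These 7 genes were taken by name out of 11684 genes that were named in at least 1 library, and all 7 genes were assembled in all 7 libraries. Each library came from B cells of the C57BL/6 background and stood for 1 condition. One was unstimulated, with no treatment, at 0 h. The other 6 were treated with anti-IgM, with BAFF or with both, for 8 h or 30 h. Anti-IgM is an antibody that crosslinks the B cell antigen receptor, and BAFF is a cytokine of the tumour necrosis factor family that keeps B cells alive. RNA was reverse transcribed from poly-dT primers, so the values describe polyadenylated host RNA and not the released snoRNAs. The labels state neither how the B cells were isolated nor how many animals gave them. There was 1 library per condition and no cultured library without a stimulus, which allows no test between conditions, and the effects of stimulus and of hours in culture cannot be told apart.

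A snoRNA host gene carries snoRNAs inside its introns. After splicing, the excised introns are trimmed to the mature snoRNAs, which guide chemical modification or cleavage of ribosomal RNA. C/D box snoRNAs guide methylation of ribose and H/ACA box snoRNAs guide conversion of uridine to pseudouridine. The spliced host RNA that is left encodes little or no protein and is in several cases a substrate of nonsense-mediated decay. Many host genes start with a run of pyrimidines, the 5′ terminal oligopyrimidine (5′ TOP) tract shared with ribosomal protein genes, whose translation follows the TOR kinase. Gas5 was named for its accumulation in growth-arrested cells. Resting B cells enlarge and make ribosomes after their antigen receptor is engaged.

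The 7 loci lie on 5 chromosomes of mm10 and hold 27 annotated snoRNA entries in GENCODE M21. Gas5 (chr1:161034597-161038675) holds 9 entries and its most spliced transcript has 12 exons and 1118 bases. Snhg1 (chr19:8723471-8726582) holds 8 in a transcript of 10 exons and 476 bases. Snhg12 (chr4:132308621-132311028) holds 4 and Snhg3 (chr4:132348001-132353686) holds 2. Snhg5 (chr9:88521049-88522899) holds 2, Snhg6 (chr1:9941985-9944118) holds 1 and Snhg8 (chr3:123507549-123508424) holds 1. All 27 entries lie in introns of the most spliced transcript of their host.

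The following snoRNAs are shown because they mark the extremes of a pattern described further on. The snoRNAs of the first group lay inside an exon of some assembled isoform in all 7 libraries, that is, in RNA with the snoRNA intron still present. Sequences are those of GENCODE M21, with the C box (5 or 6 letters in common with TGATGA) and the D box (CTGA) in capitals for C/D snoRNAs, and the terminal ACA for H/ACA snoRNAs. Snord78 of Gas5 is a C/D snoRNA at chr1:161036984-161037049. Snord22 of Snhg1 is a C/D snoRNA at chr19:8725866-8725991. Snora73b (chr4:132352322-132352526) and Snora73a (chr4:132352775-132352979), the U17 snoRNAs that act in ribosomal RNA cleavage, lie in Snhg3 on the minus strand and match at 198 of 205 positions.
Snord78: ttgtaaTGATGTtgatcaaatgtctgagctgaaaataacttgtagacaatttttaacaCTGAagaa
Snord22: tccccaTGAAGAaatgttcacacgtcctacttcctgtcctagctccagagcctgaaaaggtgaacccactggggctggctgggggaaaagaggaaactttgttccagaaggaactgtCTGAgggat
Snora73a: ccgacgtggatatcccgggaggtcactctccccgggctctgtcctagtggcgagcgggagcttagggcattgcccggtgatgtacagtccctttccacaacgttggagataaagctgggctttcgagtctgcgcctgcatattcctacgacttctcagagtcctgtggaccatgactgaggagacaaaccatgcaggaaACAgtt
Snora73b: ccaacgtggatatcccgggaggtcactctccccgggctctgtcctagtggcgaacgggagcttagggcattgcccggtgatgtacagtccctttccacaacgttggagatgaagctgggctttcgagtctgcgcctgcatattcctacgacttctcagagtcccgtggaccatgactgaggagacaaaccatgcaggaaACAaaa

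The second group is 4 of the 11 snoRNAs that lay in no exon of an assembled isoform named for their host in any library. Host isoforms that span them were assembled in all 7. Snord80 (chr1:161037601-161037681) and Snord47 (chr1:161038082-161038158) are C/D snoRNAs in the downstream introns of Gas5. Snord50a (chr9:88521529-88521600) and Snord50b (chr9:88521797-88521868) are the C/D snoRNAs of Snhg5, on the minus strand, and differ at 1 of 72 positions.
Snord80: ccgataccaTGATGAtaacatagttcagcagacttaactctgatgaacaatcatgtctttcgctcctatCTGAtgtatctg
Snord47: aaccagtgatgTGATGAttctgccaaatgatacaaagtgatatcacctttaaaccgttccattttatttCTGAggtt
Snord50a: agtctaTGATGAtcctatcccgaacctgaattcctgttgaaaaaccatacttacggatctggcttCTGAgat
Snord50b: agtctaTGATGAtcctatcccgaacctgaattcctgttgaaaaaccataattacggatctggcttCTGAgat

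Start regions were read from RefSeq promoter windows of GRCm38.p6, which matched 6 of the 7 genes, with 2 windows for Gas5. The letters TATA on the transcribed strand, with the first letter 40 to 20 bases before the start, were present in 5 of these 7 windows against 5.81% of 32851 promoters. A 5′ TOP-like tract, a C followed by 4 or more C or T that begins within 10 bases of the start, was present in 5 of 7 windows against 30.7% of all. The E-box CACGTG was in 0 of 7 windows (7.15% of all, either strand) and the cyclic AMP response element TGACGTCA in 1, that of Gas5 (1.79% of all). The 5 windows with TATA are shown from 40 bases before the start to 20 bases from it on, with TATA and the pyrimidine tract in capitals. They lie at chr1:161035126-161035185 (Gas5, plus), chr19:8723447-8723506 (Snhg1, plus), chr9:88522878-88522937 (Snhg5, minus), chr3:123508317-123508376 (Snhg8, minus) and chr4:132308638-132308697 (Snhg12, plus).
Gas5: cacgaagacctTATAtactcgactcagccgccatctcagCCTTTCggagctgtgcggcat
Snhg1: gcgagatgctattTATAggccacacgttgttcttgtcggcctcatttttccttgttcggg
Snhg5: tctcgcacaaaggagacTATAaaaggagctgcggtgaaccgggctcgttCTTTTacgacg
Snhg8: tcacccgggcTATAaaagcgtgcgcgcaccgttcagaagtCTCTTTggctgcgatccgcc
Snhg12: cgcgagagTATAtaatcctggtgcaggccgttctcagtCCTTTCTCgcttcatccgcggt
The window shown for Gas5 belongs to the downstream of its 2 annotated starts, and the first base assembled for Gas5 lay 260 to 569 bases before that start in the 7 libraries. Snhg3 had the tract and no TATA in this range.

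Expression was given by the authors as fragments per kilobase of transcript per 1000000 mapped fragments (FPKM) for each assembled transcript, with a lower and an upper bound. These bounds were read as 2 standard deviations to each side and hold no variation between cultures. For some isoforms they are wider than the counting error of the fragments. For Gas5 in anti-IgM 30 h against unstimulated, the standard error (SE) of the log2 difference was 0.14 from the bounds and 0.04 from fragment counts. The cause of this width was not tested. FPKM was summed over isoforms of 300 bases or longer, 127 isoforms in all for the 7 genes and 7 libraries, because shorter pieces held 66.6% to 74.4% of the summed FPKM of each library. The number of mapped fragments, estimated from the intervals, was 17800000 to 27200000 per library. Of 7 B cell markers 6 were assembled in each library, with summed FPKM from 835 (anti-IgM 8 h) to 2265 (BAFF 30 h). Of 7 macrophage markers 6 were assembled in the unstimulated library, with a sum of 94.1 FPKM, against 3 to 5 markers and 12.4 to 74.8 FPKM in the stimulated libraries. Erythroid markers summed to 221 FPKM in the unstimulated library, mostly Beta-s, and to 48.1 or less in the others. Of 7 T cell markers 2 to 4 were assembled, led by Lck, which was 16.5 FPKM in the unstimulated library and 93.8 FPKM in anti-IgM 30 h. Cd5 was 5.55 and 4.59 FPKM in the same 2 libraries. Cd4 (4.62 FPKM) and Cd8a (3.15 FPKM) were assembled in the unstimulated library and not in anti-IgM 30 h, and Cd3g (1.62 FPKM) the reverse. No neutrophil marker was assembled in any library. The part of these other cell types in the host gene values was not tested. In such bulk libraries, fewer cells of a type and less RNA per cell cannot be told apart.

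Gas5 was the most abundant of the 7 in every library and lay between the 96.9th and the 98.0th percentile of all genes by FPKM. Its FPKM was 148 in the unstimulated library, 211 with anti-IgM, 167 with BAFF and 216 with both at 8 h, and 234, 164 and 245 in the same order at 30 h. The unstimulated interval (142 to 155) lay below every stimulated one, and the 4 libraries with anti-IgM lay above those with BAFF alone. Among the 4 anti-IgM libraries each interval overlapped the next in rank.

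Snhg1, the U22 host gene, was 68.7 FPKM in the unstimulated library, 162 with anti-IgM, 117 with BAFF and 163 with both at 8 h, and 103, 110 and 72.0 at 30 h. The 2 libraries with anti-IgM at 8 h were the highest, with overlapping intervals, and the library with both at 30 h overlapped the unstimulated one. Snhg3, the U17 host gene, was 25.1 FPKM in the unstimulated library, 79.4, 43.6 and 53.9 at 8 h and 56.1, 36.9 and 53.2 at 30 h. Its unstimulated interval (20.5 to 29.7) lay below all others, and anti-IgM at 8 h stood above all others.

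Snhg5, the U50 host gene, was 32.9 FPKM in the unstimulated library, 79.1, 44.3 and 77.2 at 8 h and 38.5, 27.1 and 38.1 at 30 h. Its values with anti-IgM and with both at 8 h overlapped each other and no other library. Snhg12 was 58.7 FPKM in the unstimulated library, 140, 58.7 and 146 at 8 h and 56.2, 71.7 and 71.4 at 30 h. The same pair of libraries stood apart for Snhg12, and the other 5 lay at 71.7 FPKM or less.

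Snhg6, the U87 host gene, was 42.1 FPKM in the unstimulated library, 73.7, 71.6 and 99.5 at 8 h and 82.3, 51.1 and 63.2 at 30 h. Its intervals formed a chain in which each library overlapped its neighbour in rank, from both at 8 h down to the unstimulated library. Snhg8 was ordered differently: 138 FPKM in the unstimulated library, 105, 56.9 and 55.7 at 8 h and 119, 62.8 and 123 at 30 h. It was the only 1 of the 7 genes whose highest FPKM was in the unstimulated library, and its lowest values were in both libraries with BAFF alone and in the library with both at 8 h. Its unstimulated interval (125 to 151) overlapped those of both 30 h (112 to 135), anti-IgM 30 h (105 to 134) and anti-IgM 8 h (64.0 to 147).

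**Figure D1:**
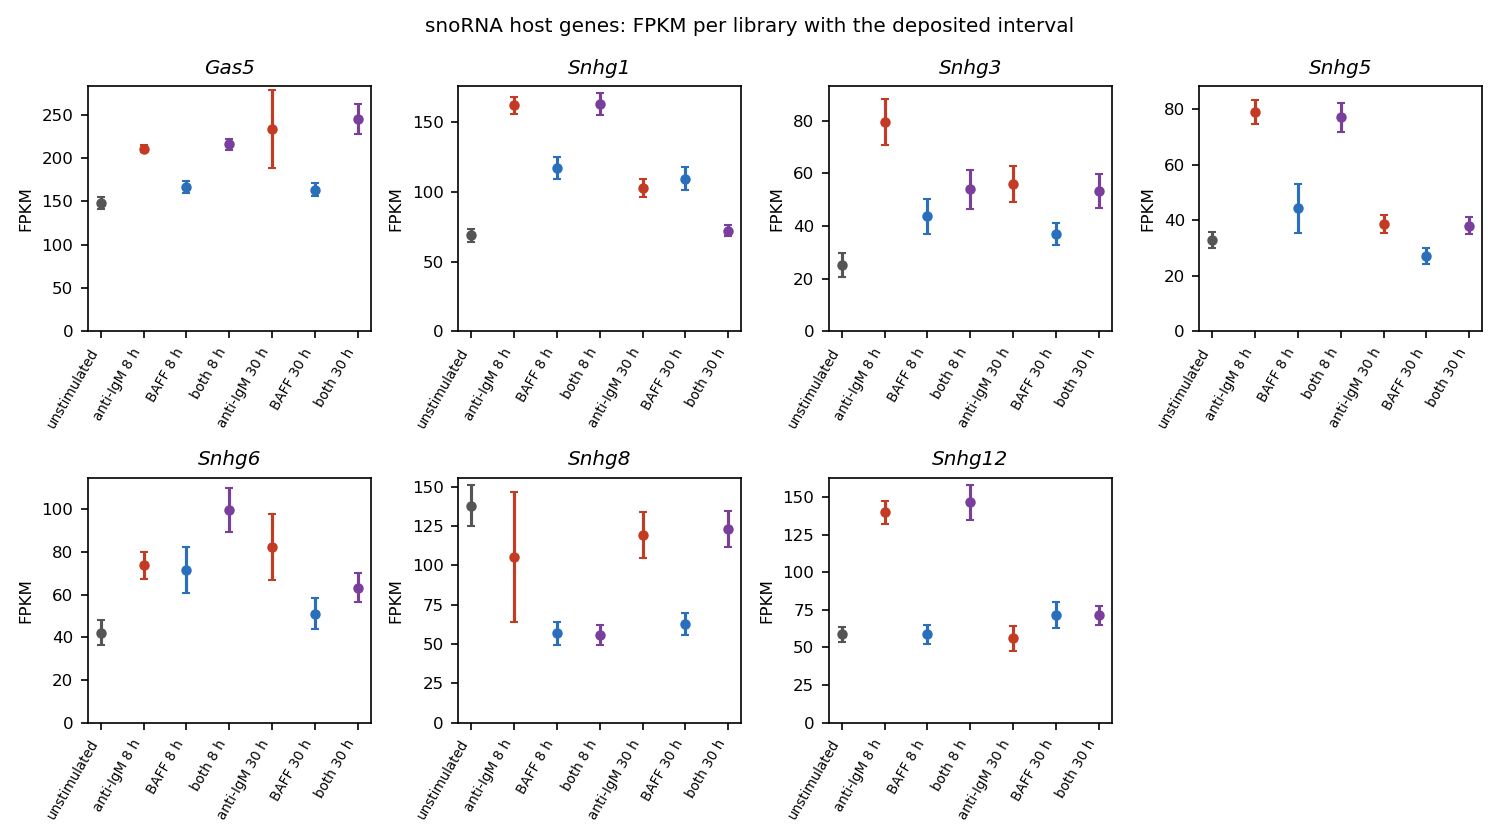
FPKM of each of the 7 host genes (vertical axes, linear from 0) in each of the 7 libraries (horizontal axes), with bars for the deposited interval combined over isoforms. The libraries with anti-IgM and with both at 8 h are the highest for Snhg1, Snhg5 and Snhg12. Snhg8 is highest in the unstimulated library at 138 FPKM, with an interval that overlaps those of anti-IgM at 8 h and 30 h and of both at 30 h.

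The same gene was assembled into different isoforms from library to library, and FPKM divides by the length of the isoform. In the unstimulated library 25.0% of Gas5 FPKM came from an isoform with a snoRNA in an exon, and in BAFF 8 h and the 3 libraries of 30 h this share was 20.5% to 30.6%. With anti-IgM and with both at 8 h it was 100% in each. The 3 Gas5 isoforms of anti-IgM 8 h were 1921, 2465 and 2541 bases long and held 2 or 3 snoRNAs each. In the unstimulated library the Gas5 isoforms had 879, 920 and 1618 bases, and 2 of these 3 held no snoRNA.

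**Figure D2:**
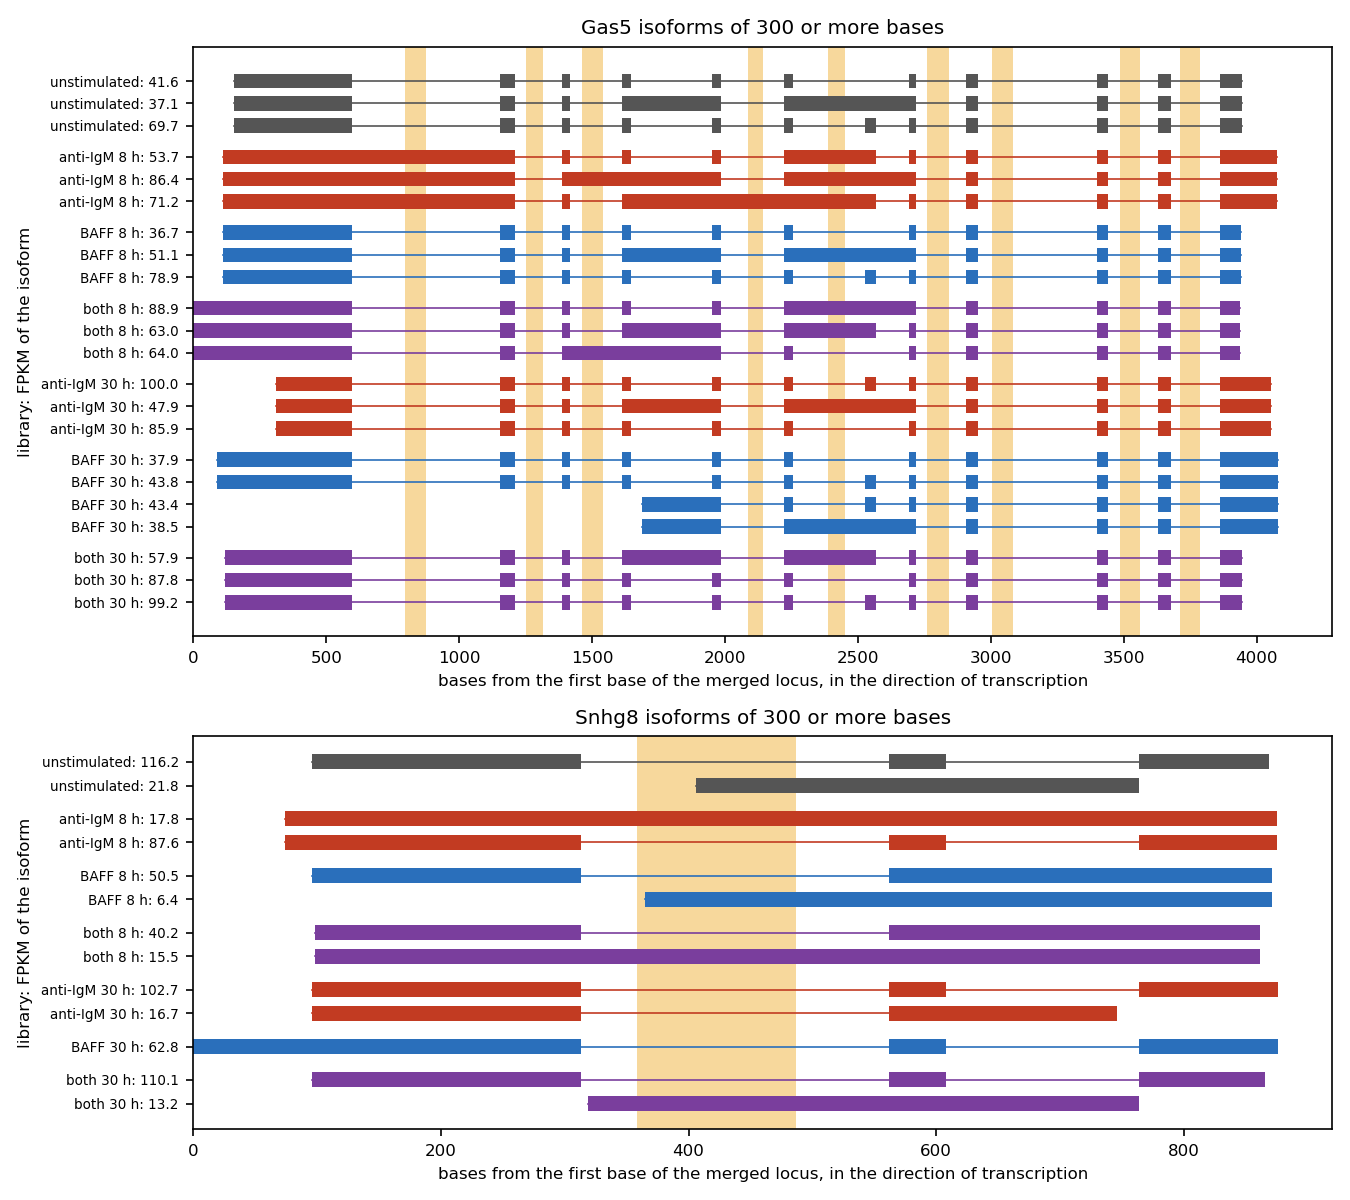
Exons (blocks) and introns (lines) of every assembled Gas5 and Snhg8 isoform of at least 300 bases, by distance from the first base of the merged locus, with annotated snoRNAs as yellow bands. Gas5 isoforms of anti-IgM 8 h run through the first snoRNA intron, and in BAFF 8 h and both 8 h the Snhg8 isoform of most FPKM has 2 exons in place of 3.

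Over the 7 genes, isoforms held 8 of the 27 snoRNAs in an exon in the unstimulated library, 14 with anti-IgM, 8 with BAFF and 14 with both at 8 h, and 8, 7 and 9 in the same order at 30 h. The 2 libraries with anti-IgM at 8 h therefore had the most, and they differed in depth, at 27200000 estimated mapped fragments for anti-IgM and 18000000 for both. BAFF at 8 h had 17800000 and 8 snoRNAs. Snhg1 was ordered differently. Isoforms with a snoRNA in an exon gave 100% of its FPKM in the unstimulated library, anti-IgM 8 h, both 8 h and both 30 h. Their share was 54.8% in anti-IgM 30 h, 31.0% in BAFF 8 h and 22.9% in BAFF 30 h. The share of spanning FPKM that held Snord78 was 25.0% in the unstimulated library, 100% with anti-IgM, 30.6% with BAFF and 70.4% with both at 8 h, and 20.5%, 23.5% and 23.7% at 30 h. For Snord22 the share ran from 17.1% to 45.7% and for Snora73b from 19.6% to 45.6%, the highest being the unstimulated library and both at 8 h respectively. Snora73a stayed between 17.1% and 27.5%.

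Other snoRNAs entered exons in some libraries only. Snord87 of Snhg6 was in an exon with both at 8 h (17.5%) and in no other library. Gm25855 of Snhg1 was in exons in 5 libraries, the unstimulated one and those with anti-IgM, at 100% in each. It was in no exon in the libraries with BAFF alone. Snora24 of Snhg8 was in an exon in 4 libraries, with a share of 11.2% with BAFF at 8 h and up to 27.9% with both at 8 h. In Snhg12, Snora61 and Snord99 were in exons in all 6 stimulated libraries and not in the unstimulated one, where a single isoform of 610 bases with 5 exons was assembled. The upstream Gas5 entry Gm26224 was in exons with anti-IgM at 8 h only, and the sequences Snord80, Snord47, Snord50a and Snord50b shown above in none. Whether deeper coverage of a gene alone brings an intron into its assembled isoforms was not tested.

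**Figure D3:**
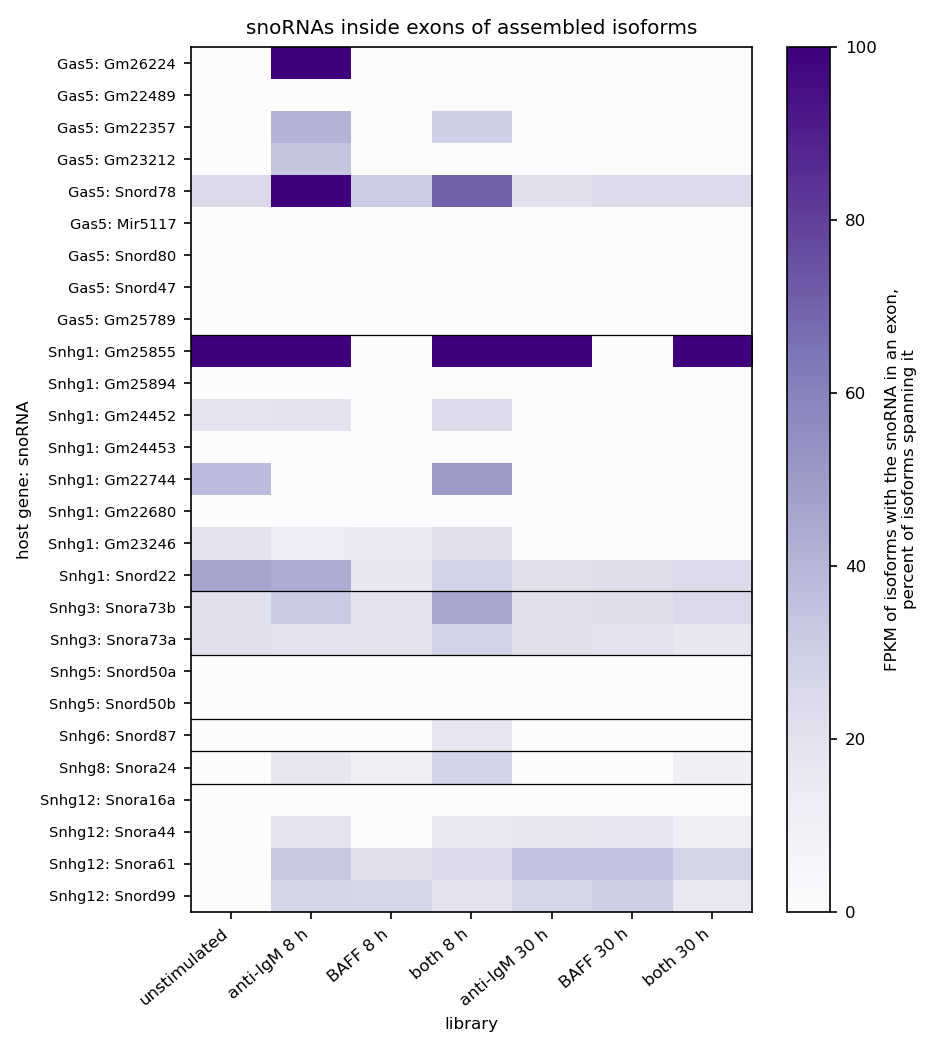
Share of the spanning isoforms' FPKM whose exons contain each of the 27 annotated snoRNAs (rows, grouped by host gene in chromosome order) in each library (columns), from 0% (white) to 100% (dark). The columns of anti-IgM 8 h and both 8 h hold the most filled cells, 14 each.

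To undo the division by length, FPKM was multiplied back by the effective length of each isoform. This is its length less the 203 to 204 bases that a fragment takes up. The product gives fragments per 1000000 mapped fragments (FPM). FPM counts fragments over every assembled base, so retained introns and longer ends add to it. Gas5 had 130 FPM in the unstimulated library, 455 with anti-IgM, 159 with BAFF and 286 with both at 8 h, and 186, 133 and 214 at 30 h. On this scale Gas5 was 3.49 times as high with anti-IgM at 8 h as in the unstimulated library. FPKM over the exons of the most spliced form weights the FPKM of each isoform by the share of that form's exon bases it covers. Fragments over retained introns still count toward the FPKM of the isoforms that hold them, and isoforms with shorter ends weigh less. On this measure Gas5 was 121 FPKM in the unstimulated library and 206 FPKM with anti-IgM at 8 h, a log2 difference of 0.77.

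Snhg8 had 22.5 FPM in the unstimulated library, 27.4, 18.2 and 21.2 at 8 h, and 21.0, 16.8 and 21.1 at 30 h. Its range over the 7 libraries was therefore 1.64-fold in FPM, against 2.48-fold in FPKM. The leading Snhg8 isoform had 3 exons and 368 bases in the unstimulated library, but 2 exons and 526 bases in BAFF 8 h and 515 bases in both at 8 h. A single exon ran from base 562 to base 870 of the merged locus in BAFF 8 h, and from 562 to 861 in both at 8 h. In the unstimulated library this stretch held 2 exons, from 562 to 607 and from 764 to 868. Isoforms this short lose much of their length to the fragment, so their FPKM depends strongly on their assembled length. The part of the joined exon in the FPKM difference was not tested.

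Genes were compared by a counting rule: a log2 difference of at least 1 (with 1 added to both values) and intervals that do not overlap. With anti-IgM at 8 h, FPKM was counted higher than unstimulated for 4 of the 7 genes (10.8% of all 9845 genes compared) and lower for 0 (10.5%). These were Snhg1 at a log2 difference of 1.23 (SE from the bounds 0.05), Snhg3 at 1.62 (0.15), Snhg5 at 1.24 (0.07) and Snhg12 at 1.24 (0.07). Gas5 (0.51) and Snhg6 (0.79) were above 0 without reaching the rule and Snhg8 was at −0.39. The median of the 7 was 1.23, against 0.04 for all genes. In FPM, with SE from fragment counts, 6 of 7 were counted higher (14.0% of all genes). Among them were Gas5 at 1.79 (0.03), Snhg3 at 1.70 (0.10) and Snhg6 at 1.27 (0.09), and Snhg8 at 0.28 (0.08) did not reach the rule. Over the exons of the most spliced form these 4 genes were at 0.77, 2.01, 0.34 and −0.07. With the most abundant transcript of each gene only, 2 of 7 were counted higher (11.3% of all genes) and the median was 0.45.

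With both stimuli at 8 h, FPKM was counted higher for 5 of 7 genes (12.4% of all genes) and lower for 1 (8.91%), and the median was 1.21 against 0.11 for all genes. The 5 were Snhg1, Snhg3, Snhg5, Snhg6 and Snhg12, at 1.07 to 1.30, and the lower gene was Snhg8 at −1.29 (0.11). In FPM 6 of 7 were counted higher (13.4% of all genes), from 1.03 for Snhg1 to 1.63 for Snhg3. Snhg8 was at −0.08 (0.10) in FPM, and over the exons of its most spliced form it stayed lower, at −1.11. With the most abundant transcript only, 2 of 7 were counted higher (12.6% of all genes) and the median was 0.54.

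With BAFF alone at 8 h no gene was counted higher in FPKM (5.66% of all genes) and Snhg8 was counted lower (4.35%), at −1.26 (0.11). The median of the 7 was 0.42 in FPKM against 0.12 for all genes, and Snhg3 (0.77), Snhg1 (0.76) and Snhg6 (0.75) were furthest above 0. In FPM no gene was counted higher (4.14% of all genes). Snhg3 was then furthest above 0, at 0.71 (0.11), while Snhg1 was at −0.15 (0.06) and Snhg8 at −0.29 (0.10). The median of the 7 in FPM was 0.15, the same as that of all genes. Over the exons of its most spliced form Snhg8 was at −1.14, and Snhg1 was at 0.85 over those of its own.

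At 30 h the differences from the unstimulated library were smaller for most of the genes. With anti-IgM FPKM was counted higher for 1 gene (8.43% of all genes) and lower for 0 (7.33%), and that gene was Snhg3 at 1.13 (0.15). With both, Snhg3 was again the 1 gene counted higher (8.38%), at 1.05 (0.15), and 0 were lower (7.89%). In FPM Snhg3 was likewise the 1 gene counted higher with anti-IgM (9.96%) and with both (9.59%), at 1.02 each. With BAFF at 30 h, 0 genes were counted higher in FPKM (5.29%) or FPM (4.24%), and Snhg8 was counted lower in FPKM (4.09%), at −1.12 (0.10), with −0.40 (0.10) in FPM. Snhg3 was above unstimulated in all 6 stimulated libraries on both scales. With 7 genes, a count of 0 or 1 is near the share of all genes counted, so these counts do not set the 7 genes apart at 30 h. These 6 comparisons share the 1 unstimulated library.

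**Figure D4:**
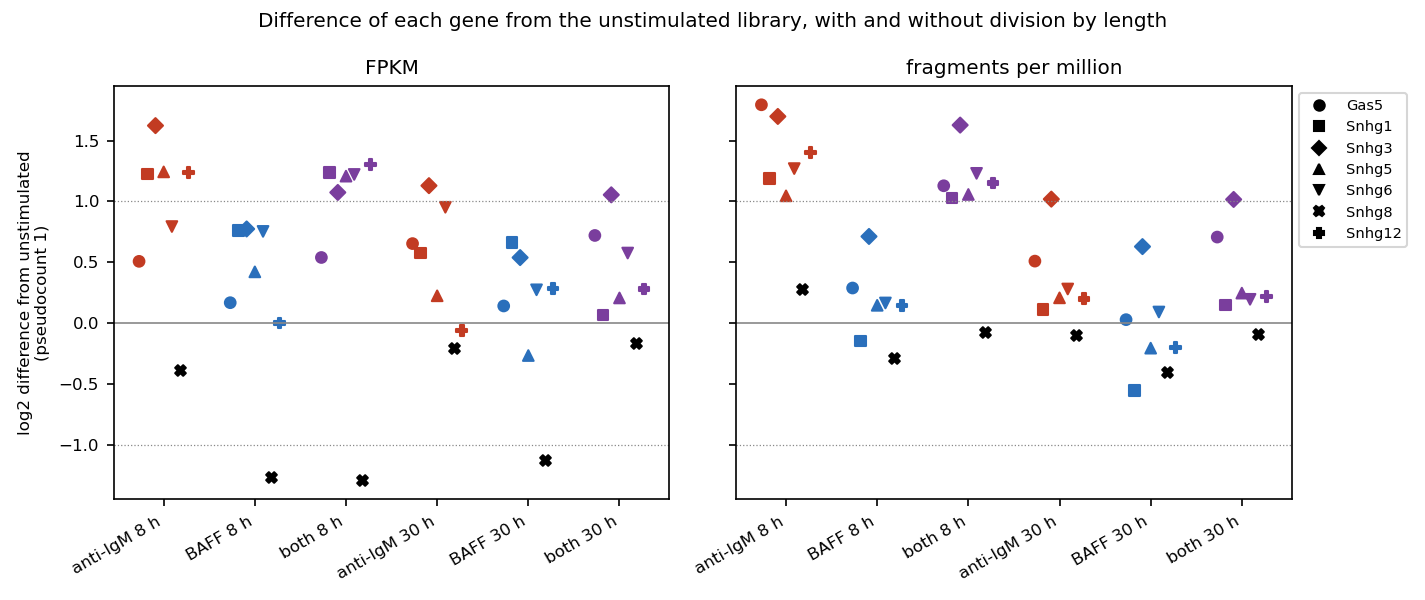
Log2 difference of each host gene (marker shapes) from the unstimulated library in each stimulated library (horizontal axis), from FPKM on the left and from FPM on the right, with 1 added to both values and dotted lines at −1 and 1. Snhg8, in black, is at −1.26 and −1.29 in BAFF 8 h and both 8 h on the left and at −0.29 and −0.08 on the right.

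Anti-IgM and BAFF were also compared with each other at the same hour. At 8 h all 7 genes were above 0 for anti-IgM against BAFF in FPKM, with a median of 0.82, but 1 was counted higher (4.91% of all genes), Snhg12 at 1.24 (0.09). In FPM 4 of 7 were counted higher (5.28%): Gas5 at 1.51, Snhg1 at 1.34, Snhg12 at 1.26 and Snhg6 at 1.10. Over the exons of the most spliced form these 4 were at 0.55, 0.34, 1.07 and −0.19. On that measure Snhg3 was at 1.27, Snhg5 at 0.82 and Snhg8 at 1.07. Both stimuli against BAFF at 8 h gave 1 gene counted higher in FPKM (5.64%), again Snhg12 at 1.30 (0.10), and 3 in FPM (4.66%), Snhg1 at 1.18, Snhg6 at 1.07 and Snhg12 at 1.01. These 3 were at 0.23, 0.56 and 0.84 over the exons of the most spliced form.

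No difference between both stimuli and anti-IgM alone met the rule. The counts of 0 in this paragraph are near the shares of all genes given beside them, so they do not set the 7 genes apart. For both against anti-IgM at 8 h 0 genes were counted in either direction (6.25% of all genes), with a median of 0.01 in FPKM. In FPM Gas5 stood lowest, at −0.67 (0.02), and the other 6 lay between −0.35 and 0.01. In FPKM the interval of Snhg6 with both at 8 h (89.2 to 110) lay above those of either stimulus alone, a difference that was −0.04 (0.07) in FPM against anti-IgM. At 30 h Snhg1 with both lay below either stimulus alone in FPKM, at −0.51 against anti-IgM and −0.60 against BAFF, with 0.04 and 0.70 in FPM. Over the exons of its most spliced form these differences were −0.05 and −0.39. At 30 h both against anti-IgM again gave 0 counted genes (5.35%), and in FPM all 7 lay between −0.08 and 0.20. Anti-IgM against BAFF at 30 h (8.71%) and both against BAFF at 30 h (8.19%) gave 0 counted genes each, with medians of 0.51 and 0.47 in FPKM, and in FPM all 7 genes were above 0 in each.

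Between 8 h and 30 h most of the genes that stood high with anti-IgM were lower at the later time. For anti-IgM 2 genes were counted lower at 30 h in FPKM (5.40% of all genes), Snhg5 at −1.02 (0.07) and Snhg12 at −1.30 (0.11), and 3 in FPM (5.75%), Gas5 at −1.29, Snhg12 at −1.20 and Snhg1 at −1.08. For both stimuli 3 were counted lower in FPKM (7.04%), Snhg1 at −1.17, Snhg12 at −1.03 and Snhg5 at −1.001, and 1 in FPM (5.49%), Snhg6 at −1.04. Snhg8 was counted higher at 30 h than at 8 h of both in FPKM (5.62%), at 1.13 (0.11), and was at −0.01 (0.09) in FPM and 1.01 over the exons of its most spliced form. With libraries scaled to the same median or to the same upper quartile, 1 gene was counted lower for anti-IgM and 1 for both, and with the most abundant transcript only 1 and 0. With 7 genes, such counts of 0 or 1 are near the 5.40% and 7.04% of all genes counted lower in unscaled FPKM summed over isoforms. For BAFF 0 genes were counted in either direction (7.88%), with a median of −0.10 in FPKM and −0.26 in FPM. In FPM all 7 genes were below 0 in each of these 3 comparisons. Over the exons of the most spliced form Snhg6 (0.43) and Snhg8 (0.04) were above 0 for anti-IgM. On that measure Snhg8 (0.58) was above 0 for BAFF, and Gas5 (0.14) and Snhg8 (1.01) for both.

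Genes that act on snoRNAs or on host RNA were described beside the 7 by FPKM, in lists chosen for their function. Of 18 genes for snoRNA-binding proteins and their assembly factors, 12 were counted higher than unstimulated with anti-IgM (10.8% of all genes), 0 with BAFF (5.66%) and 13 with both (12.4%) at 8 h. At 30 h 4, 2 and 3 were counted higher (8.43%, 5.29% and 8.38% of all genes), and 0 were lower throughout (4.09% to 10.5% of all genes). Their medians were 1.18, 0.59 and 1.76 at 8 h and 0.77, 0.48 and 0.76 at 30 h. Nop56, a core protein of C/D particles and itself a snoRNA host, was 72.2 FPKM in the unstimulated library and 263, 145 and 251 at 8 h. Fbl, the methyltransferase of C/D particles, was 79.8 FPKM and then 106, 53.3 and 292, and Nop10, a core protein of H/ACA particles, was 71.4 and then 116, 59.5 and 108. For Nop56, as for Snhg5 and Snhg12, anti-IgM with or without BAFF at 8 h gave the highest values. Nop10 was also 108 FPKM with both at 30 h.

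Protein-coding snoRNA hosts, mostly ribosomal protein genes, had medians of −0.03, −0.12 and 0.10 with anti-IgM, BAFF and both at 8 h. Of 31 compared, 6 were counted higher with anti-IgM, 2 with BAFF and 7 with both (10.8%, 5.66% and 12.4% of all genes), and 3, 1 and 1 were lower (10.5%, 4.35% and 8.91%). Tpt1 was 3741 FPKM in the unstimulated library and 2340, 2699 and 2478 at 8 h, and Rps12 was 2042 and then 836, 1485 and 2335. Many ribosomal protein genes are short and have near-identical pseudogene copies, which can make their FPKM uncertain. The effect on the values of this list was not tested. At 30 h the medians were 0.52, 0.19 and 0.61 with anti-IgM, BAFF and both. Of 13 further noncoding snoRNA hosts 3 were assembled in the unstimulated library. Snhg7 was 5.02 FPKM there and 13.6, 14.2 and 7.94 at 8 h, and it was counted higher with anti-IgM and with BAFF, Snhg4 was 8.50 FPKM and Snhg10 was 2.07.

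Of 12 nonsense-mediated decay genes compared, 2 were counted higher with anti-IgM, 1 with BAFF and 3 with both at 8 h, 0 were lower, and the medians were 0.44, 0.30 and 0.51. Of all genes 10.8%, 5.66% and 12.4% were counted higher and 10.5%, 4.35% and 8.91% lower. A count of 0 to 2 in a list of this size is near that background. Magoh, of the exon junction complex, was 76.5 FPKM and then 171, 97.9 and 157. Eif4a3 of the same complex was 64.8 and then 117, 68.2 and 118, and the kinase gene Smg1 was 41.7 and then 42.3, 47.9 and 44.0. Of 10 genes of the TOR pathway and of 5′ TOP control, 2, 1 and 2 were counted higher and 0 lower, also near those shares, with medians of 0.51, 0.47 and 0.43. Larp1, which binds 5′ TOP RNA, was 27.6 FPKM and then 77.8, 41.2 and 79.2, Rheb was 39.6 and then 56.7, 36.0 and 53.1, and Eif4ebp2 was 42.0 and then 41.0, 45.0 and 39.9. At 30 h 0 to 2 genes of either list were counted higher in each library and 0 lower. The shares of all genes at that hour ran from 5.29% to 8.43% for higher and from 4.09% to 7.89% for lower. In lists of 12 and 10 genes such counts are near these shares, so they do not set either list apart.

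**Figure D5:**
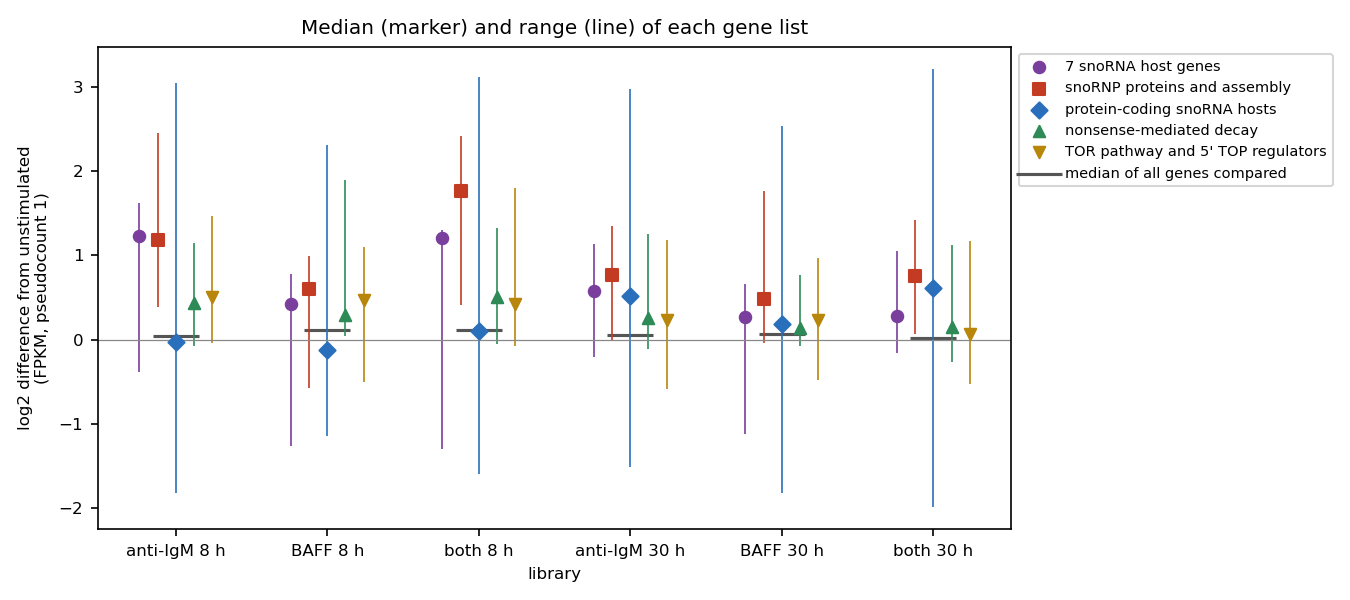
Median (marker) and lowest to highest value (line) of the log2 difference in FPKM from the unstimulated library for the 7 host genes and 4 lists, with grey bars for the median of all genes compared. The medians of the 7 host genes and of the snoRNA protein list are above 1 with anti-IgM and with both at 8 h, and protein-coding hosts are near 0 there.

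Some neighbouring genes were assembled beside the hosts. Slc3a2, the heavy chain of an amino acid transporter, starts 102 bases from Snhg1 on the opposite strand, and was 39.4 FPKM in the unstimulated library, 82.5, 44.5 and 110 at 8 h and 53.6, 49.1 and 38.0 at 30 h. Its highest libraries, anti-IgM and both at 8 h, were also those of Snhg1. Trnau1ap, 596 bases from the end of Snhg12 on the opposite strand, was 22.1 FPKM in the unstimulated library and 53.0, 34.8 and 55.4 at 8 h. Zbtb37 shares 478 exon bases with Gas5 on the other strand and was 7.65 FPKM or less, against 148 or more for Gas5, and whether the libraries kept the strand is not given in the sources used here. Pieces of at least 300 bases named Snora16a, inside an intron of Snhg12, were 28.0 FPKM with anti-IgM at 8 h, 13.0 with BAFF at 8 h and 10.9 with BAFF at 30 h. They took the name of the snoRNA and not of the host, so the counts of snoRNAs in exons of host isoforms leave them out.

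The profile of the 7 genes over the 7 libraries, as the mean of log2 FPKM plus 1 centred on each gene's own mean, was −0.40 in the unstimulated library, 0.49, −0.17 and 0.35 at 8 h and 0.07, −0.33 and −0.01 at 30 h. Among 6925 genes with at least 5 FPKM in all libraries, those with the smallest root mean square difference from this profile included 2410127L17Rik (0.04), D17Wsu104e (0.04), Nubp2 (0.05), Tmem11 (0.05) and Pdrg1 (0.06). Nubp2 was 32.2 FPKM in the unstimulated library, 60.4, 41.1 and 56.5 at 8 h and 43.3, 34.9 and 43.1 at 30 h. Of the 7 host genes, Gas5 was nearest to their mean profile at 0.22, with 14.0% of the 6925 genes closer, and Snhg8 was furthest at 0.63, with 84.1% closer.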

How the data were processed

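FPKM values and their bounds are those the authors deposited for each Cufflinks transcript of 7 libraries. Per the submitters' processing notes, the tools were CASAVA 1.8.2, TopHat2 2.0.5, Bowtie2 2.0.0.7, Cufflinks 2.0.2 and Cuffdiff, with mm10. Each library was assembled separately, so isoforms, and with them the lengths FPKM divides by, differ between libraries. Transcripts were named here by most same-strand exon overlap with the deposited merged set (Python 3.11.15, pandas 2.3.3). FPKM was summed over isoforms of at least 300 bases, and standard errors from the bounds were combined in quadrature, as if isoforms were independent. A gene was compared where assembled in both libraries and at 1 FPKM or more in 1 of them, with 15 comparisons. FPM, fragments per 1000000 mapped fragments, are FPKM times effective length. All 7 genes, the 3 most abundant unstimulated genes of each list, the 6 most alike genes and neighbours within 1000 bases are named, except for genes not reported here. Genes, lists and rules were chosen with earlier results of these data known. Alternatives covered the pseudocount, filters, naming, scaling, rule and length.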

Additional observations from a re-analysis of the deposited data

Results flagged for a closer look

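Assembled pieces of fewer than 300 bases entered no comparison, and 2 of them carried the Gas5 name in stimulated libraries while the unstimulated library had none. With both stimuli at 8 h a piece of 187 bases was deposited at 154 FPKM (107 to 201). With both at 30 h a piece of 120 bases was deposited at 2173 FPKM (1458 to 2887). Both are shorter than the 203 to 204 bases that a fragment takes up, so their effective length is undefined and their FPKM cannot be set beside that of longer isoforms. Each has 1 exon, lies in an intron of the most spliced Gas5 transcript and holds no annotated snoRNA.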

How the results depend on the processing

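Of 15 alternatives, 6 gave the same median of the 7 genes in all 15 comparisons, some because they change only the counting rule or a filter that all 7 genes pass. Under the other 9, 101 of 135 medians moved by less than 2 standard errors (from the bounds) of the middle gene, and 118 kept their sign. With the most abundant transcript only, the median against unstimulated was 0.45 for anti-IgM 8 h, 0.54 for both 8 h, 0.22 for anti-IgM 30 h, −0.66 for BAFF 30 h and 0.50 for both 30 h. It was 0.17 for both against BAFF at 8 h, 0.80 at 30 h, −0.086 for both against anti-IgM at 8 h, and −0.50 (BAFF) and −0.18 (both) for 30 h against 8 h. With reads over the exons of the gene it was 1.03 for both 8 h, 0.20 for anti-IgM 30 h, −0.20 for BAFF 30 h, 0.87 for both against BAFF at 8 h, −0.23 for both against anti-IgM at 8 h, and −0.81 (anti-IgM) and −0.26 (BAFF) for 30 h against 8 h. Scaling to the same upper quartile gave 1.07 for anti-IgM 8 h and 1.05 for both 8 h. A minimum of 500 bases gave −1.03 (anti-IgM) and −0.38 (BAFF) for 30 h against 8 h.

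The next alternatives were chosen after seeing the data. In FPM the median was 0.21 for anti-IgM 30 h, −0.20 for BAFF 30 h, 0.92 for both against BAFF at 8 h, −0.16 for both against anti-IgM at 8 h, and −0.99 (anti-IgM) and −0.26 (BAFF) for 30 h against 8 h. Over the exons of the spliced form it was 0.89 for anti-IgM 8 h, 0.99 for both 8 h, 0.34 for anti-IgM 30 h, −0.056 for BAFF 30 h, −0.15 for both against anti-IgM at 8 h, and −0.78 (anti-IgM) and −0.25 (BAFF) for 30 h against 8 h. Snhg8 in 30 h against 8 h of both, counted higher in FPKM, turned to −0.011 in FPM and in reads over exons, and was 1.01 over the exons of the spliced form. The cause of the other shifts was not tested. No paired analysis was possible because each condition has 1 library and no result comes from a test, and for the same reason no replicate could be left out. Depth sets the counting error, and its effect on the assembly was not tested.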
